A study of Citrus maxima with 6 samples.

Results

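ABC transporters are membrane proteins that use the energy of ATP to move hormones, lipids, metal complexes and conjugated metabolites across membranes. A full transporter joins membrane-spanning domains to domains that bind ATP, and plants, which hold far more of these genes than animals, also encode half-size proteins that work in pairs and bacterial-type subunits that assemble from separate genes. The genes described here are those of the pomelo annotation whose name holds the words ABC transporter, ABC-2, non-intrinsic ABC, ATP-binding cassette or P-glycoprotein, in any case. This rule reads names and no measured value, but earlier results of these data were known when it was set. It gave 69 of the 30123 genes. They were read in ripe pulp of 2 pomelo cultivars, a white one, Citrus maxima (Burm.) Osbeck, and a red one, which is Citrus maxima Merr. var. Tubtim Siam. There were 3 libraries of poly-A RNA per cultivar, each a biological repeat mixed from the sarcocarp of several fruits grown in orchards of the same region. Each colour is represented by a single cultivar, so that colour and cultivar cannot be told apart, and no agent was applied to either. Expression is given as FPKM, the number of sequenced fragments scaled by gene length and library size. This scaling is meant to bring genes and libraries to a common measure, and other scalings between libraries are given at the end.

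The name alone places a gene in the superfamily, whereas the best Arabidopsis hit in the annotation places it in a subfamily. Of the 69 genes, 30 hit the mostly half-size ABCG subfamily, 22 the ABCB subfamily, 9 the bacterial-type ABCI subunits, 3 the soluble ABCF proteins, 2 the ABCA transporters and 2 the ABCD transporters. The remaining gene, Cg5g039450, is named ABC transporter 1 but hits a protein of the ABC1 kinase-like family, which serves coenzyme Q synthesis and is no transporter. It was kept because the name rule takes it, with 4.52 ± 0.560 FPKM in red and 6.21 ± 0.959 in white (SD, n = 3). A further 76 genes hit an ABC gene of Arabidopsis but carry other names, such as pleiotropic drug resistance or multidrug resistance-associated protein. These include the whole ABCC subfamily of 14 genes, known for moving conjugates into the vacuole, and they serve below only as the rest of the family.

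A gene was taken as expressed, and tested, when its mean FPKM reached 1 in at least 1 cultivar. By this rule 30 of the 69 ABC transporter genes were expressed (43.5%), against 47.0% of all genes, and 23 were listed at 0 FPKM in all 6 libraries (33.3%, against 39.5% of all genes). The other 16 lay above 0 in some library, and no library of an untested gene exceeded 0.71 FPKM. Most expressed genes were shared, with 26 expressed in both cultivars, 2 in red only (Cg6g003490 and Cg4g012010) and 2 in white only (Cg6g003480 and Cg3g009290). This split rests on which cultivar mean reached 1 FPKM, and single values of the cultivars overlapped for Cg4g012010 and Cg3g009290. The subfamilies differed in how many genes the pulp used. All 9 ABCI genes, both ABCA and both ABCD genes were expressed, while 8 of the 30 ABCG and 7 of the 22 ABCB genes were, and 12 ABCG and 10 ABCB genes were listed at 0 throughout.

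**Figure D1:**
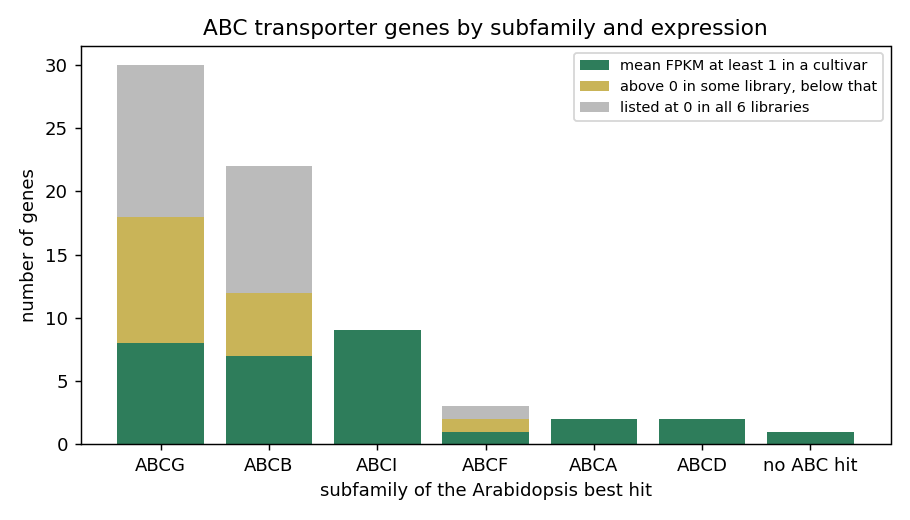
Number of ABC transporter genes (y axis) by subfamily of the best Arabidopsis hit (x axis), split into genes with a mean of at least 1 FPKM in a cultivar, genes above 0 in some library but below that, and genes listed at 0 in all 6 libraries. The 9 ABCI genes were all expressed, whereas 8 of 30 ABCG and 7 of 22 ABCB genes were.

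Where several of the 69 genes shared a hit, at most 1 of them was expressed. The genes of other names did not keep to this. Among them, ABCG34 hits with means over all libraries of 41.7 and 132.8 FPKM were both expressed. The 69 genes fell on 44 Arabidopsis hits, of which 31 were hit by a single gene and 23 of those genes were expressed. The other 13 hits were shared by 38 genes. For 7 of these hits 1 gene was expressed, for 6 none was, and for 0 more than 1. The largest such set held 10 genes hitting ABCB15. There, Cg6g023500 carried 98.8% of the summed FPKM, 5 genes were listed at 0, and the gene with the next ID, Cg6g023510, reached 0.07, 0.10 and 0.13 FPKM in red and was listed at 0 in the 3 white libraries. Among the 3 ABCF1 hits Cg8g019580 carried 99.98%, and among the 3 ABCB21 hits Cg5g039240 was the only one above 0. Reads that fit several copies can be divided between them or lost during quantification, and copies were not compared by sequence here, so the low values within such sets are uncertain.

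The family's RNA was concentrated in a few genes. Summed over the 69 genes, FPKM ran from 962.1 to 1142.9 per library, or 0.118% to 0.138% of all FPKM, and the ABCF1 and ABCI17 hits alone made up 52.7% to 58.5% of that sum. The mean over the 6 libraries reached 100 FPKM for 3 genes, lay from 10 to 100 for 13 and from 1 to 10 for 13, and was below 1 for 1. The median expressed ABC transporter gene had a mean of 10.9 FPKM, compared with 14.3 for all 14158 genes tested. Spread between repeats was close to that of other genes: the median coefficient of variation was 11.7% in red and 11.4% in white, against 11.2% and 10.7% over all genes tested.

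**Figure D2:**
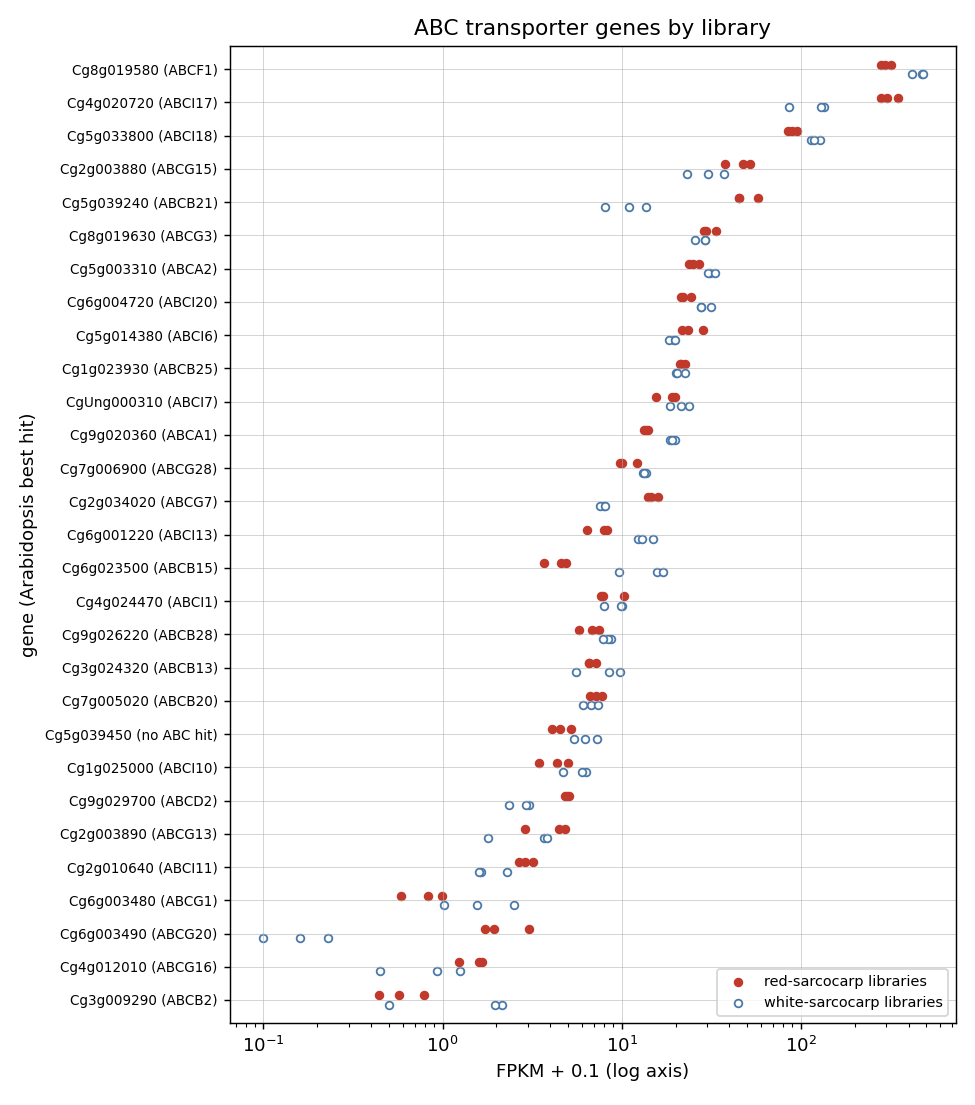
FPKM + 0.1 (x axis, log scale) of 29 expressed ABC transporter genes (y axis, ordered by mean FPKM, best Arabidopsis hit in brackets) in each of the 3 red (filled) and 3 white (open) libraries. Single values reach 479.03 FPKM, and the red and white points stand widest apart for Cg6g003490 and Cg5g039240.

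The comparison of the 2 cultivars asked which transporter genes differ between red and white pulp. FPKM was compared as log2(FPKM + 0.1) with limma over all genes tested, and a positive log2 fold change means more in red. The small constant makes the changes of low genes look smaller than they are. Under the thresholds of the study, an absolute log2 fold change of 2 or more with an adjusted p not above 0.01, 2 of the 30 genes were higher in red and 0 were lower, while 3.11% of all genes tested were higher and 3.65% lower. Without adjustment for testing many genes, 12 of the 30 were lower in red at a limma p below 0.05, 0 of them by 2 log2 units or more, and 8 were higher. These were 40% and 26.7%, and over all genes tested the shares at that p were 26.6% lower and 27.2% higher. At the adjusted p alone 5 were higher and 5 lower, 16.7% each, beside 13.4% and 14.1% of all genes tested. These shares lie near those of all genes and single out no direction for the family. The 5 higher genes hit ABCG20, ABCB21, ABCI17, ABCG7 and ABCD2, and the 5 lower genes hit ABCB15, ABCI13, ABCF1, ABCA1 and ABCI18. The median log2 fold change of the 30 genes was -0.21, compared with 0.02 for all genes tested, and 13 lay above 0 and 17 below. The median size was 0.44, against 0.40. The 3 red values lay wholly above or below the 3 white values for 20 of the 30 genes (66.7%, and 57.7% of all genes tested). The count of 10 fell to 5 without red replicate 1, to 5 without white replicate 2 and to 6 without white replicate 3, with all genes called falling from 3897 to 2074, 2406 and 2582. Of the 5 lower genes 1 was left without red replicate 1, 1 without white replicate 2, 2 without white replicate 3 and 3 without red replicate 2, whereas 4 of the higher genes were called in each of the 6 cases. In bulk pulp, fewer cells of a type and less RNA per cell cannot be told apart.

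**Figure D3:**
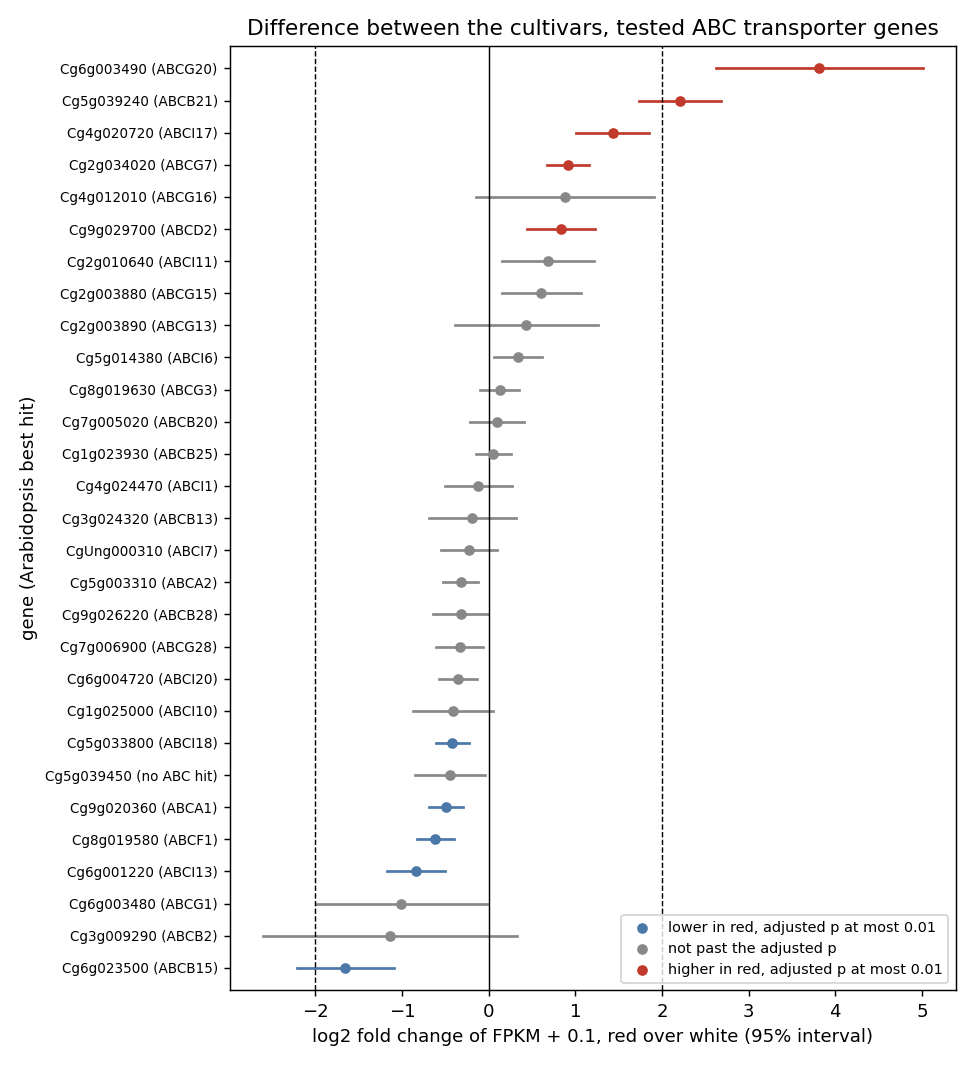
Log2 fold change of FPKM + 0.1, red over white (x axis), with its 95% interval (bars) for 29 tested ABC transporter genes (y axis, best Arabidopsis hit in brackets); dashed lines mark the threshold of 2 in either direction. The 5 genes higher in red at an adjusted p of at most 0.01 are in red, the 5 lower genes in blue and the 19 others drawn in grey.

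Cg5g039240, P-glycoprotein 21, had the smallest adjusted p of the 30 tested genes and, with Cg6g003490, was 1 of the 2 past both thresholds. Its Arabidopsis hit, ABCB21, is a plasma membrane protein that moves the hormone auxin in or out of the cell depending on its concentration. The 3 red libraries held 45.26, 45.17 and 57.78 FPKM and the 3 white libraries 7.97, 13.50 and 10.84 FPKM. Every red library stood above every white one, with means of 49.4 ± 7.26 and 10.8 ± 2.77 FPKM (SD, n = 3), a 4.59-fold ratio. The log2 fold change was 2.21 ± 0.20 (SE; 95% interval 1.74 to 2.68) with a limma adjusted p of 0.000261, and it stayed between 2.01 and 2.39 under every alternative, past both thresholds each time. The other 2 genes of this name, Cg8g006890 and Cg9g000130, were listed at 0.

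The remaining genes of the family with a listed auxin transport role carry other names and were named after their values were seen. Roles were listed by Arabidopsis hit, and the list need not be complete. ABCB1 and ABCB19 of Arabidopsis export auxin and together drive its long-distance flow. Cg6g024720, the expressed ABCB19 hit, had 23.72, 31.79 and 25.49 FPKM in red and 17.15, 17.07 and 16.07 in white, a log2 fold change of 0.67 (limma adjusted p = 0.00438). That call was lost without red replicate 3 (adjusted p = 0.0101) or without white replicate 1, 2 or 3 (0.0142, 0.0163 and 0.0179). Cg3g011050, the ABCB1 hit, went the other way, with 5.12, 5.10 and 7.29 FPKM in red and 14.19, 15.16 and 12.44 in white (log2 fold change -1.26, limma adjusted p = 0.00130). In neither gene did the cultivars overlap. Of the 9 genes listed with this role in the whole family 3 were expressed, 2 of them higher and 1 lower in red. Of all genes tested 13.4% were higher and 14.1% lower. A count of 3, with 2 of the genes picked after their values were seen, says nothing of the role as a group. The 4 listed at 0 included the only ABCB4 hit, Cg8g006900, ABCB4 being a root auxin transporter. The 3 expressed hits were ordered ABCB21, ABCB19 and ABCB1 by mean FPKM in red, from 49.4 to 5.84, while in white their means lay between 10.8 and 16.8 FPKM.

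Libraries of red pulp also held transcripts of seed storage genes. Seed markers, 6 genes, summed to 5.40 to 25.51 FPKM in the red libraries, highest in red replicate 3, and to 0.09 to 0.25 FPKM in white, and 2 of the 2 that were tested were higher in red past both thresholds. The cruciferin 3 hit and both oleosin hits were listed at 0 in all white libraries and were too low to test. In red they had 0, 0.9 and 0.17 FPKM (cruciferin 3), 0, 0.37 and 0.73 (oleosin 2) and 0.59, 0 and 1.78 (oleosin 1). The ABCB21 hit, like the seed sum, was highest in red replicate 3, and without that library its log2 fold change was 2.09 (limma adjusted p = 0.00113). The remaining red libraries held seed transcripts too, with sums of at least 5.40 FPKM, so this fit does not take them out. Secondary wall cellulose synthase genes, which mark xylem, went in the opposite direction, the 4 genes summing to 0.04 to 0.06 FPKM in red and 1.47 to 3.87 FPKM in white, with 1 tested and lower past both thresholds and 1 listed at 0 throughout. Green tissue markers, 10 genes, summed to 471 to 503 FPKM in red and 488 to 596 in white, with 2 of 7 tested genes higher and 2 lower. Phloem markers ran from 19.6 to 23.0 FPKM in red and 20.7 to 29.3 FPKM in white, and epidermal wax genes from 19.2 to 27.0 FPKM and 7.68 to 23.1 FPKM, with none of the 2 tested genes of each list called. No list defined the juice sac cells themselves, and the part of other tissues in the differences described here was not tested.

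Cg6g003490, an ABC-2 type half-transporter, had the largest log2 fold change but a low level. Its hit, ABCG20, is needed with ABCG2 and ABCG6 for the suberin barrier of roots and seed coats in Arabidopsis. The red libraries held 1.84, 2.96 and 1.63 FPKM and the white ones 0.13, 0.06 and 0.00 FPKM. All red values were above all white values, at 2.14 ± 0.715 against 0.0633 ± 0.0651 FPKM (SD, n = 3). The fitted log2 fold change, 3.82 ± 0.51 (SE; 95% interval 2.62 to 5.01; limma adjusted p = 0.00118), depended on the pseudocount, being 1.54 with a pseudocount of 1, 2.20 with 0.5 and 5.50 with 0.01. The authors' mean normalized count over the 6 libraries was 42.1, the lowest among the 30 tested genes of the name rule.

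The IDs before it belong to related genes that were not called or not tested. Cg6g003480, hitting ABCG1, had 0.49, 0.89 and 0.73 FPKM in red and 1.45, 2.40 and 0.92 in white, with every white value above every red value. Its log2 fold change of -1.01 (95% interval -2.0 to -0.02) missed the threshold at a limma adjusted p of 0.0877. Cg6g003470, hitting ABCG2, was too low to test, at means of 0.147 and 0.0867 FPKM. Cg4g012010, hitting ABCG16, which lays down the pollen wall with ABCG1 in Arabidopsis, overlapped between the cultivars, at 1.14, 1.5 and 1.56 FPKM in red and 1.16, 0.83 and 0.35 in white (log2 fold change 0.88, 95% interval -0.15 to 1.91, limma adjusted p = 0.139). Of the 7 suberin and pollen wall genes, 3 were thus tested and 1, the ABCG20 hit, was called higher, beside 13.4% of all genes tested. A count of 3 says nothing of the role as a group. The other genes of this role, Cg7g005630, Cg7g004250 and Cg6g003380, had at most 0.10 FPKM in any library.

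Cg4g020720, non-intrinsic ABC protein 3, was the second most abundant of the 69 genes and had the largest log2 fold change of the 3 with a mean of at least 100 FPKM. Its hit ABCI17 is the ATP-binding partner, called STAR1 in rice, of a transporter needed for aluminium tolerance. FPKM was 302.69, 347.79 and 279.52 in the red libraries and 134.81, 129.16 and 86.11 in the white ones. The lowest red library thus exceeded the highest white library more than the repeats of either cultivar differed among themselves. The means were 310.0 ± 34.7 and 116.7 ± 26.6 FPKM (SD, n = 3), a 2.66-fold ratio, and the log2 fold change was 1.43 ± 0.18 (SE; 95% interval 1.01 to 1.86; limma adjusted p = 0.000949). The call held under every alternative, from 1.23 to 1.55. By mean FPKM the gene ranked 726 of 14158.

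The membrane partner of this ATPase was listed near 0. Cg6g003330, hitting ALS3 (ABCI16), the membrane subunit with which it works, had 0.00, 0.00 and 0.09 FPKM in red and 0.53, 0.00 and 0.29 in white, and was not tested. The other aluminium tolerance gene, Cg5g011640, hits ALS1 (ABCB27), a half-transporter of the vacuole membrane. It had 73.55, 79.24 and 58.80 FPKM in red and 36.01, 35.83 and 31.34 in white, without overlap. Its log2 fold change was 1.03 (limma adjusted p = 0.000877), kept under every alternative. Both tested genes of this group were higher in red, beside 13.4% of all genes tested. A count of 2, with Cg5g011640 picked after its values were seen, says nothing of the role as a group. Cg6g003330 and Cg5g011640 carry other names and were named after their values were seen.

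**Figure D4:**
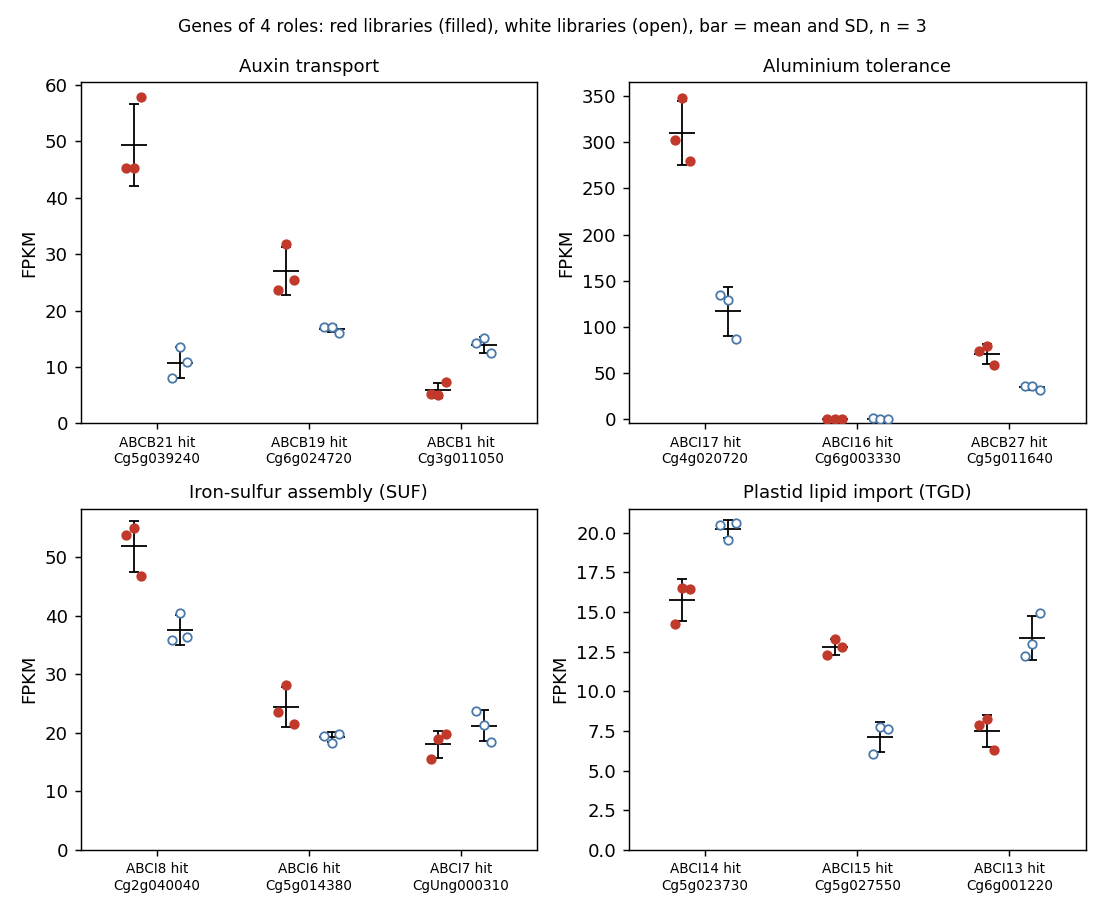
FPKM (y axis, linear, starting at or just below 0) of the genes of 4 roles in the red (filled) and white (open) libraries, with the mean and SD of 3 libraries as bars; x axis labels give the best Arabidopsis hit and the gene. Red libraries are higher for the ABCB21, ABCB19, ABCI17, ABCB27, ABCI8 and ABCI15 hits and white libraries for the ABCB1 and ABCI13 hits at an adjusted p of at most 0.01; the ABCI6, ABCI7 and ABCI14 hits were not called and the ABCI16 hit was not tested.

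The plastid lipid importer was unequal in its subunits. In Arabidopsis the TGD1 permease, the TGD2 lipid-binding protein and the TGD3 ATPase form a complex that brings lipids from the endoplasmic reticulum into the plastid. Cg6g001220, the TGD3 (ABCI13) hit and non-intrinsic ABC protein 11, had 7.90, 8.23 and 6.32 FPKM in red and 12.25, 12.98 and 14.92 in white. Red was lower in every library, at 7.48 ± 1.02 against 13.4 ± 1.38 FPKM (SD, n = 3), with a log2 fold change of -0.84 ± 0.14 (SE; limma adjusted p = 0.00331). Leaving out red replicate 1 (adjusted p = 0.0123) or either of white replicates 2 and 3 (0.0137 and 0.0141) ended the call.

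The 2 other TGD hits carry other names and were named after their values were seen. Cg5g027550, hitting TGD2 (ABCI15), was higher in red, at 12.30, 13.28 and 12.79 FPKM against 6.03, 7.73 and 7.63 (log2 fold change 0.84, limma adjusted p = 0.00218). That call was lost without red replicate 1 (adjusted p = 0.0106) or red replicate 2 (0.0103). Cg5g023730, hitting TGD1 (ABCI14), had 14.23, 16.54 and 16.48 FPKM in red and 20.47, 19.57 and 20.61 in white. Its values did not overlap, but its log2 fold change of -0.36 missed the threshold (limma adjusted p = 0.0198). The ATPase hit was therefore lower and the lipid-binding hit higher in red, each without overlap between the cultivars.

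Iron-sulfur cluster supply showed smaller differences. SUFB, SUFC and SUFD are bacterial-type proteins that assemble iron-sulfur clusters in plastids, and ABCB25 is the mitochondrial exporter that supplies the cytosol. Cg5g014380, the SUFC (ABCI6) hit, had 23.49, 28.23 and 21.54 FPKM in red and 19.51, 18.22 and 19.84 in white. Red was higher in each library, yet the log2 fold change of 0.34 (95% interval 0.06 to 0.61) missed the threshold at a limma adjusted p of 0.0507. CgUng000310, the SUFD (ABCI7) hit, overlapped between cultivars, at 15.43, 18.91 and 19.75 FPKM in red and 23.72, 21.38 and 18.43 in white (log2 fold change -0.23, 95% interval -0.55 to 0.09). For Cg1g023930, the ABCB25 hit, 21.43, 22.54 and 21.09 FPKM in red stood against 19.94, 22.39 and 20.35 in white. These overlapped as well, and the interval of its log2 fold change, -0.15 to 0.26, was among the narrowest of the family. Cg2g040040, the SUFB (ABCI8) hit of another name, picked out after its values were seen, was higher in red at 51.8 ± 4.41 against 37.6 ± 2.52 FPKM (SD, n = 3; log2 fold change 0.46, limma adjusted p = 0.00703). It was not called without red replicate 1 (adjusted p = 0.0334), red replicate 2 (0.0263) or white replicate 1, 2 or 3 (0.0242, 0.0128 and 0.0259).

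Cg8g019580, hitting ABCF1, was the most abundant of the 69 genes and ranked 372 of 14158 by mean FPKM. ABCF proteins have no membrane domain and transport nothing, and their yeast relatives work with the ribosome. The red libraries held 279.55, 321.24 and 295.74 FPKM and the white libraries 473.09, 479.03 and 420.52 FPKM. Every white library was above every red library, at 457.5 ± 32.2 against 298.8 ± 21.0 FPKM (SD, n = 3), with a log2 fold change of -0.61 ± 0.09 (SE; 95% interval -0.83 to -0.40; limma adjusted p = 0.00189). The adjusted p rose to 0.0119 without red replicate 1 and to 0.0102 without white replicate 2, just past the threshold. The other ABCF1 hits, Cg5g026140 and Cg3g000190, were listed at 0 in all but 1 white library of the former, which held 0.46 FPKM.

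Of the lower genes with a hit of less settled role, Cg6g023500 differed most. This ABCB15 hit had 4.82, 3.61 and 4.50 FPKM in red and 15.66, 17.01 and 9.59 FPKM in white, a 3.27-fold ratio of white to red. White was above red in every library, and the log2 fold change was -1.65 ± 0.24 (SE; 95% interval -2.21 to -1.10; limma adjusted p = 0.00160), kept under every alternative from -1.91 to -1.48. Cg9g020360, ATP-binding cassette A1, one of the long full-size transporters, had 13.51, 13.87 and 13.29 FPKM in red and 18.44, 19.78 and 19.10 in white. This was a log2 fold change of -0.49 ± 0.08 (SE; limma adjusted p = 0.00338) that was lost without red replicate 1 (adjusted p = 0.0170), red replicate 2 (0.0107), white replicate 2 (0.0166) or white replicate 3 (0.0132). Cg5g033800, non-intrinsic ABC protein 4 and the third most abundant of the 69 genes, had 89.86, 94.82 and 85.24 FPKM in red and 128.46, 113.64 and 118.94 in white. Its cultivars did not overlap and its repeats were tight, with a log2 fold change of -0.42 ± 0.08 (SE; limma adjusted p = 0.00530), but leaving out any 1 of the 6 libraries ended the call, at adjusted p from 0.0106 to 0.0249.

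A pair of less abundant genes was higher in red. Cg2g034020, the ABCG7 hit, had 13.90, 14.45 and 15.96 FPKM in red and 7.92, 7.47 and 7.98 in white. The repeats of each cultivar lay close together and far from the other cultivar, at 14.8 ± 1.07 against 7.79 ± 0.279 FPKM (SD, n = 3), a 1.90-fold ratio. Its log2 fold change of 0.91 ± 0.10 (SE; limma adjusted p = 0.000621) was called under every alternative. Cg9g029700, the ABCD2 hit, had 4.70, 4.97 and 4.88 FPKM in red and 2.96, 2.84 and 2.25 in white, a log2 fold change of 0.84 ± 0.17 (SE; limma adjusted p = 0.00624). No red value fell within the white range, but leaving out any 1 library ended the call, at adjusted p from 0.0123 to 0.0243.

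The other abundant genes were not called. Cg2g003880, the ABCG15 hit and the fourth most abundant, had 47.64, 51.90 and 37.87 FPKM in red and 23.16, 37.35 and 30.38 in white (log2 fold change 0.61, 95% interval 0.16 to 1.06, limma adjusted p = 0.0372). The lowest red library stood just above the highest white one. Its neighbour by ID, Cg2g003890, hits ABCG13, which exports cuticle lipids in Arabidopsis flowers, and lay far lower, at 3.97 ± 1.05 and 3.00 ± 1.14 FPKM (SD, n = 3), with overlap between the cultivars. Cg8g019630, the ABCG3 hit, overlapped too, at 28.84, 33.36 and 29.34 FPKM in red and 28.98, 25.69 and 29.14 in white, with an interval of -0.10 to 0.35. Cg5g003310, ATP-binding cassette A2, had 25.2 ± 1.58 and 31.5 ± 1.44 FPKM (SD, n = 3; log2 fold change -0.32, limma adjusted p = 0.0192) without overlap. The gene with the ID before it, Cg5g003300, an ABCA7 hit of another name, chosen after its values were seen, differed more, at 11.8 ± 0.538 against 30.2 ± 0.787 FPKM (SD, n = 3; log2 fold change -1.34, limma adjusted p = 6.57e-05). Cg6g004720, the ABCI20 hit, part of a cytokinin-responsive complex of the endoplasmic reticulum in Arabidopsis seedlings, had 21.35, 22.05 and 24.26 FPKM in red and 31.38, 27.60 and 27.66 in white (log2 fold change -0.35, limma adjusted p = 0.0200). White was above red in each library.

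Of the 20 expressed genes that were not called, 10 still had cultivars that did not overlap (50%, against 41.6% of all tested genes that were not called). These included, besides those given above, Cg7g006900, the hit of the pollen tube protein ABCG28 (10.6 ± 1.3 against 13.3 ± 0.295 FPKM, limma adjusted p = 0.0503), Cg9g026220, an ABCB28 hit (6.59 ± 0.827 against 8.25 ± 0.469, limma adjusted p = 0.0879), and Cg2g010640, an ABCI11 hit with the larger values in red (2.82 ± 0.273 against 1.74 ± 0.391, limma adjusted p = 0.0437; SD, n = 3 for each). The genes with wide intervals were low. Cg3g009290, P-glycoprotein 2, had 0.69, 0.47 and 0.34 FPKM in red and 0.40, 2.04 and 1.86 in white, and its log2 fold change of -1.13 had an interval of -2.60 to 0.33, which holds no difference as well as a large one. The remaining overlapping genes, hits of ABCB13, ABCB20, ABCI1 and ABCI10, had means from 4.18 to 9.21 FPKM and log2 fold changes from -0.41 to 0.10. ABCI1 belongs to the machinery that matures cytochrome c in mitochondria. By size, 17 of the 30 log2 fold changes were under 0.5 (56.7%, against 58.1% of all genes tested), 7 from 0.5 to 1, 4 from 1 to 2 and 2 above 2 (6.67%, against 9.01%).

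Several hormone and barrier transporters known from other organs were close to or at 0 in ripe pulp. Cg6g020410, ATP-binding cassette 14, hits the ABCG14 protein that moves cytokinins from root to shoot in Arabidopsis, and had 0.20, 0.29 and 0.07 FPKM in red and 0.05, 0.03 and 0.11 in white. Both hits of ABCG22, Cg3g018140 and Cg6g013740, which in Arabidopsis acts in the abscisic acid response of stomata, were listed at 0, as was Cg4g014110, the hit of the pollen exine exporter ABCG26. Cg1g023120, hitting the cuticle protein ABCG5, had 0.12, 0.15 and 0.71 FPKM in red and 0.20, 0.11 and 0.26 in white. All were too low to test. Over the whole family, 4 of 17 genes with an abscisic acid role and 4 of 9 with a cuticle role were tested. By limma 0 of these had an adjusted p of at most 0.01, beside 13.4% higher and 14.1% lower of all genes tested. Without adjustment 0 had a limma p below 0.05, beside 27.2% higher and 26.6% lower of all genes tested. With only 4 tested genes per role, these counts say nothing of either role as a group. The untested abscisic acid genes include Cg3g019410, an ABCG25 hit of another name, chosen after its values were seen, which was listed at 0 FPKM in 5 libraries and at 0.17 in red replicate 3 although the authors' mean normalized count was 200.

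Among the 76 ABC-family genes of other names, 34 were tested (44.7%) and 24 were listed at 0. At the adjusted p alone 8 were higher (23.5%, against 13.4% of all genes tested) and 6 lower in red (17.6%, against 14.1%), and 1 was higher past both thresholds. That gene, Cg2g039520, an ABCC12 hit, had 4.67, 5.30 and 2.98 FPKM in red and 0.40, 0.46 and 0.37 in white (log2 fold change 3.08 ± 0.30, SE, limma adjusted p = 0.000339). The cultivars were far apart in every library. The most abundant of these genes were Cg6g016070, an ABCG34 hit, lower in red at 111.7 ± 9.86 against 153.8 ± 15.0 FPKM (limma adjusted p = 0.00944), Cg5g037260, an ABCC14 hit, higher at 126.3 ± 6.06 against 82.0 ± 10.5 (limma adjusted p = 0.00339), and Cg5g044890, an ABCC9 hit, not called at 87.5 ± 6.93 against 112.2 ± 13.2 (limma adjusted p = 0.0313; SD, n = 3 for each). The first call was lost without any 1 library other than red replicate 3 (limma adjusted p from 0.0182 to 0.0401). It was also lost under median-of-ratios scaling (0.0121), quantile normalization (0.0196), no filter on low values (0.0112), no mean-variance trend (0.0239) and the replicate block (0.0296). The second call was lost without red replicate 1 (0.0170) or red replicate 3 (0.0110), with no mean-variance trend (0.01055) and with the replicate block (0.0117). The count of 14 fell to 6 without red replicate 1 and to 7 when red replicate 2 or either of white replicates 2 and 3 was left out.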

How the data were processed

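Per the paper and labels, poly-A RNA was made into libraries with a NEBNext Ultra kit, and the authors trimmed reads with Trimmomatic, mapped them with STAR 2.7.1a to version v1.0 of the C. maxima genome and obtained FPKM with RSEM 1.3.1. The deposited table holds FPKM per gene and library, to 2 decimals. It also holds a DESeq2 comparison from featureCounts 2.0.1 counts, of which the fold changes and p-values were not used and the mean normalized count (a deposited normalized signal) is given as the authors' mean. Whether counting used strand is not given in the sources used here. Single-library counts were not used, so depth is not given and precision rests on 3 repeats. FPKM summed to 812335 to 835575 per library, with 15920 to 16250 genes above 0.

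The 14158 genes with a mean FPKM of at least 1 in a cultivar entered a limma 3.58.1 fit (R 4.3.3) of log2(FPKM + 0.1) (cultivar as the only term, empirical Bayes with a mean-variance trend), with Benjamini-Hochberg adjustment over all of them. The script was tested on simulated data. Groups came from the sample titles, and 0 FPKM columns were left unused. Members and lists were chosen with earlier results of these data known. Genes named by rule were members past both thresholds, the 8 largest called changes each way without overlap and the 8 most abundant members. Members with a listed role were named too, as were other-name genes past both thresholds or among the 3 most abundant. Any other gene was picked out after its values were seen, also where this is not said beside it. Alternatives were other pseudocounts, filters, scalings and moderation, a replicate block, and leaving out each library. No genome was used, so sequences and positions are not given. For 1 member, counted in every total, single values are not reported here.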

Additional observations from a re-analysis of the deposited data

Results flagged for a closer look

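Some genes of the family had a signal in the authors' mean normalized count although FPKM was listed at 0 in all 6 libraries. Of the ABC transporter genes by name these were 4, Cg2g008580 with a mean count of 0.828, Cg2g044130 with 1.97, Cg3g000190 with 1.18 and Cg4g020950 with 1.25. Of the genes of other names they were 2, Cg1g008480, an ABCG11 hit, with 21.6 and Cg8g020180 with 1.13. These means exceed what 3 counts over the 6 libraries would give. A gene listed above 0 in 1 library showed a wider gap and was picked out after its values were seen: Cg3g019410, an ABCG25 hit, had a mean count of 200 with 0.17 FPKM in red replicate 3 and 0 elsewhere. The mean covers both cultivars, so it holds no comparison between them, and why the 2 quantities differ was not tested.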

How the results depend on the processing

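Some named genes that were tested, such as Cg5g003300 and Cg7g006900, were not followed through the alternatives. No alternative turned the direction of any of the 31 that were followed. Of the 18 called, 8 kept their call under all 16 alternatives (Cg5g039240, Cg6g003490, Cg4g020720, Cg2g034020, Cg6g023500, Cg2g039520, Cg3g011050 and Cg5g011640), 10 lost it under at least 1, and 0 were gained. Genes past both thresholds went from 2 to 1 with a pseudocount of 1, which leaves out Cg6g003490. The 10 genes past the adjusted p alone became 6 with the replicate block and 5 to 8 when each library was left out, the 5 lower genes 2 and 1 to 4, and the 5 higher genes 4 in each case. The 14 genes of other names became 7 without the mean-variance trend, 9 with the replicate block and 6 to 13 without 1 library. Fewer samples remain in the latter fits; the cause of the other changes was not tested. Deviations of same-numbered libraries correlated at 0.000, 0.031 and -0.045, and not every sample correlated best with its own. Whether same-numbered libraries shared any handling cannot be told from so few libraries. The block moved the count for all genes from 3897 to 2712. Scaling by median of ratios or quantiles left the median log2 fold change of all genes at 0.005 and 0.019, against 0.020, and left the 5 higher and 5 lower genes as they were in number. The number of expressed genes rests on the FPKM threshold, and 5 tested genes had an authors' mean count below 100, the range being 42.1 to 20410.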
